A study of Mus musculus with 203 samples.

Results

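The genes described here are 8 of the 24029 in the count table: Brinp1, Brinp2 and Brinp3, Megf9, Megf10 and Megf11, and Thsd7a and Thsd7b. Brinp3, Megf11 and Thsd7a were selected on their counts in these same neurons, in which they stood apart between the cardiac subtypes, and their named relatives in the table were added to ask whether only 1 member of each family marked ACP neurons and what laryngeal neurons had.

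The neurons came from the nucleus ambiguus (Amb), the brainstem motor nucleus that supplies the heart, the airways and the larynx, of wild-type C57BL/6 mice, of the substrain C57BL/6NCrl in the study's methods. Fluorescent cholera toxin B, a tracer carried back along the axon, was injected on postnatal day 1 into the pericardial space or into the cricothyroid muscle of the larynx, and labeled neurons were aspirated from slices on postnatal days 2 to 4. Each sample was 1 neuron sequenced by Smart-seq2, which amplifies full-length cDNA by PCR and carries no molecular identifiers. By the deposited annotation, 53 heart-labeled neurons were ACP (ambiguus cardiopulmonary), 98 heart-labeled neurons were ACV (ambiguus cardiovascular) and 52 neurons were of the group annotated Larynx. No treatment or transgene distinguished the groups, and the laryngeal neurons were labeled by a separate injection, so the type and the preparation cannot be told apart for them. The labels name no animal, litter or plate. The neurons are therefore 203 cells of 3 types with 1 sample each, and every comparison below is a description without a test: the spread (SD) is that between neurons, the ACP and ACV groups were themselves made by clustering these counts, and the 3 comparisons share their neurons.

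Brinp proteins are neuronal proteins that carry the membrane attack complex/perforin (MACPF) domain, a fold best known from the pore-forming proteins of immunity, and were named for their induction by bone morphogenetic protein and retinoic acid. Their closest relatives are the astrotactins. Megf proteins carry many EGF-like repeats: Megf10 and Megf11 are transmembrane receptors of the Draper family, of which Megf10 takes part in the engulfment of synapses and dying cells by astrocytes and both set the spacing of retinal neurons, whereas Megf9 is a more distant transmembrane protein grouped with them by its EGF-like repeats. Thsd7a and Thsd7b are large transmembrane proteins with many thrombospondin type 1 repeats, a module shared with thrombospondins, semaphorins of class 5 and UNC5 netrin receptors, and Thsd7a is known from endothelial cell migration and from the podocytes of the kidney.

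Total counts ran from 542162 to 3292763 per neuron. The ribosomal RNA gene Rn45s took a median of 34.3% of them in ACP, 35.8% in ACV and 58.6% in laryngeal neurons, which left a median of 1115375 counts outside Rn45s per ACP neuron and of 560892 per laryngeal neuron. Levels are therefore counts per 10000 counts outside Rn45s, and the level of a type is the mean over its neurons. The annotated types carried their own markers: the summed level of Pappa2, Trhr and Calb1 had a median of 5.53 in ACP neurons and of 0 in ACV neurons, that of Bche, Ghsr and Hoxa5 a median of 5.19 in ACV and 0.0916 in ACP neurons, and that of Calca, Calcb and Dlk1 a median of 21.02 in laryngeal neurons. All markers of the glial and vascular lists were in the table, and of these Opalin and Flt1 had no read in ACP neurons. The summed medians in ACP, ACV and laryngeal neurons were 15.3, 13.3 and 16.2 for 8 astrocyte genes, 0.398, 0.298 and 0.705 for oligodendrocyte precursors, 1.27, 0.864 and 1.04 for oligodendrocytes, 0.0572, 0.165 and 0.186 for microglia and 0 in each type for endothelium.

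Against ACV neurons, ACP neurons had a mean level at least 2-fold higher of 4 of the 8 genes (Brinp2, Brinp3, Megf11 and Thsd7a) and at least 2-fold lower of 1 (Thsd7b). Over all 13356 genes that were read in 10% or more of either type's neurons, 9.87% were higher and 8.63% lower by the same measure, and since the genes were selected on this contrast nothing is read from the excess. The high ranks of Brinp3, Megf11 and Thsd7a on this contrast, given below, likewise restate their selection. The Megf family had 1 ACP-high member (Megf11), the Thsd7 family 1 (Thsd7a) and the Brinp family 2. Megf10 was an exception under some alternatives. It also passed 2-fold in neurons with at most 900 Apoe counts, with at most 50% of counts on Rn45s, or without Pdgfra and Cspg4 reads. It was 2-fold lower in ACP neurons when the 1 ACP neuron with most of its level was left out, but no ACV neuron. Without the highest 5% of neurons of each type it was lower by less than 2-fold. Against laryngeal neurons Thsd7a alone was at least 2-fold higher in ACP neurons, joined by Brinp3 with totals that include Rn45s and with means of logs: 1 of 8 beside 10.3% of 13256 genes, and none was at least 2-fold lower, beside 12.5%. ACV neurons in turn were at least 2-fold below laryngeal neurons in 4 of the 8 genes (Brinp2, Brinp3, Megf11 and Thsd7a), beside 14% of 13297 genes, and above them in 1, Thsd7b, beside 10.4%. When totals with Rn45s were used, the comparisons with laryngeal neurons shifted as a whole, by a median log2 ratio over all genes of 0.58 for ACP and 0.52 for ACV. The genes higher and lower then numbered 3398 and 695 for ACP and 3281 and 955 for ACV, in place of 1367 and 1653 and of 1381 and 1858.

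**Figure D1:**
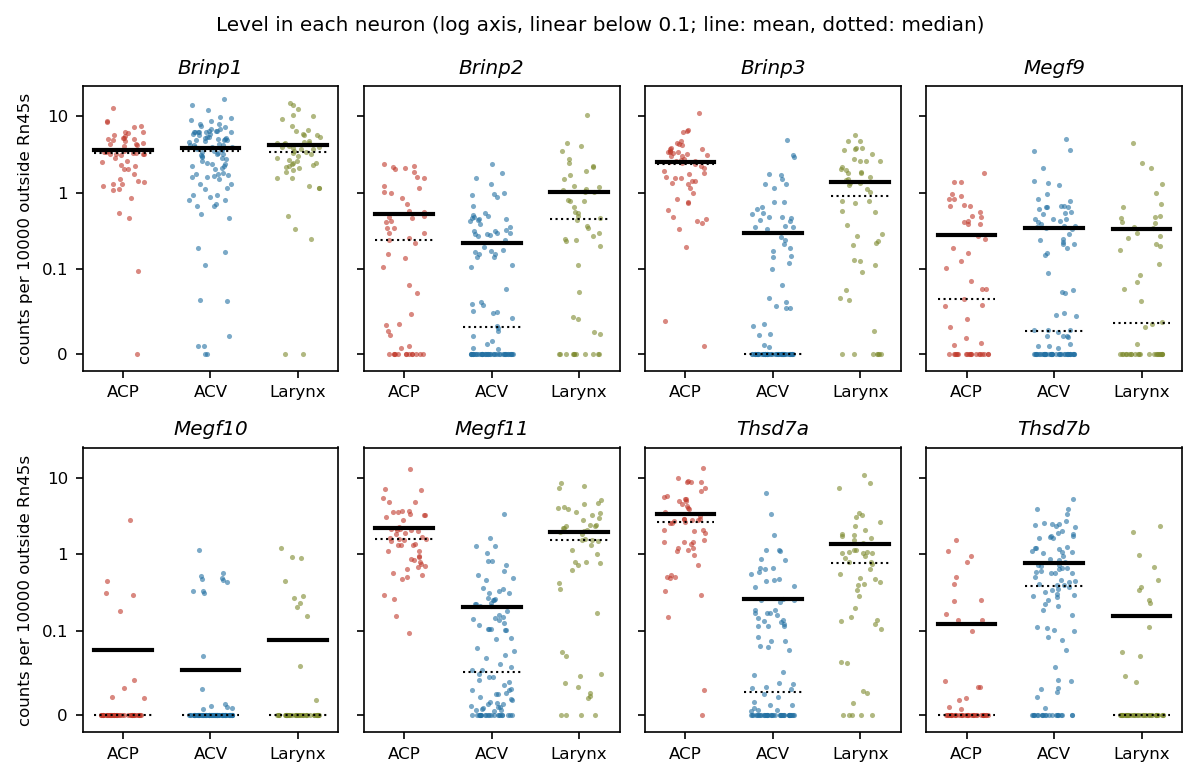
Level of each gene in each neuron (counts per 10000 counts outside Rn45s, on a log axis that is linear below 0.1) by type, 1 point per neuron, with the mean as a solid and the median as a dotted line. Brinp3, Megf11 and Thsd7a have means of 2.23 to 3.35 in ACP and of 0.202 to 0.300 in ACV neurons, Thsd7b has the reverse order, and Brinp1 has means of 3.65 to 4.19 in all types.

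Brinp3 (chr1:146494760-146902472, plus strand, GRCm38) was the ACP-high member of the Brinp family with the larger fold. Its level had a lowest value of 0.00956, a median of 2.36 and a highest value of 11.2 in ACP neurons. In ACV neurons these were 0, 0 and 4.89, and in laryngeal neurons 0, 0.913 and 5.66. No ACP neuron lacked Brinp3 reads, whereas the typical ACV neuron had none, and the quartile ranges of ACP (1.16 to 3.44) and ACV (0 to 0.259) did not overlap although the extremes did. The mean of 2.54 ± 2.03 (SD, n = 53) in ACP neurons was 8.48-fold that of 0.300 ± 0.726 (n = 98) in ACV neurons, and the ACP neuron was the higher in 93.0% of ACP-ACV pairs of neurons, the fifth highest share of the 13356 genes. Laryngeal neurons were intermediate, with a mean of 1.39 ± 1.49 (n = 52), which was 4.64-fold the ACV mean. The ACP mean was 1.83-fold the laryngeal mean, just below 2-fold, with overlapping quartile ranges and with the ACP neuron higher in 69.8% of pairs. With totals that include Rn45s, the log2 ratio of ACP over laryngeal neurons for Brinp3 was 1.23 instead of 0.87, beyond 2-fold, against the shift of 0.58 of all genes. An annotated antisense gene, Gm29514, shares 161 bases (2.30%) of the exons of Brinp3 and is not a row of the table. Whether reads were counted by strand is not given in the sources used here, and its part in the Brinp3 counts was not tested.

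Brinp2 (chr1:158245269-158356326, minus strand) was low and uneven in all types. Its level reached 2.35 in ACP (median 0.238), 2.35 in ACV (median 0.0318) and 10.3 in laryngeal neurons (median 0.453), with a lowest value of 0 in each. Laryngeal neurons thus held the highest values, and the quartile ranges overlapped between all types. The mean in ACP neurons (0.531 ± 0.708) was 2.42-fold that in ACV neurons (0.220 ± 0.401), with the ACP neuron higher in 64.2% of pairs, a weaker separation than that of Brinp3. Laryngeal neurons had the highest mean, 1.02 ± 1.70, which was 4.64-fold the ACV mean and 1.92-fold the ACP mean. The laryngeal excess over ACP neurons did not hold in the 15 laryngeal neurons with at most 50% of counts on Rn45s, in which the log2 ratio of Brinp2 for ACP over laryngeal neurons was 0.14 instead of −0.94.

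Brinp1 (chr4:68761514-68954397, minus strand), the third member, did not differ beyond the spread between neurons. Its level ranged from 0 to 13.0 in ACP neurons (median 3.34), from 0 to 17.1 in ACV neurons (median 3.47) and from 0 to 15.0 in laryngeal neurons (median 3.46). The 3 medians lay within the quartile range of every type. The means were 3.65 ± 2.48, 3.86 ± 3.13 and 4.19 ± 3.40, and a read was found in 98.1%, 98.0% and 96.2% of the neurons. Brinp1 was the leading Brinp in each type: per kb of annotated exon, the scale on which levels within a family are compared, it made up 58.2% of the Brinp level in ACP, 90.2% in ACV and 68.3% in laryngeal neurons. Brinp3 contributed 35.8%, 6.18% and 19.996% on the same scale, and Brinp2 5.97%, 3.62% and 11.7%. Even in ACP neurons Brinp1 was above Brinp3 per kb in 42 of 53 neurons. Brinp3 was above Brinp2 per kb in 48 of 53 ACP neurons, in 32 of 98 ACV neurons and in 31 of 52 laryngeal neurons.

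**Figure D2:**
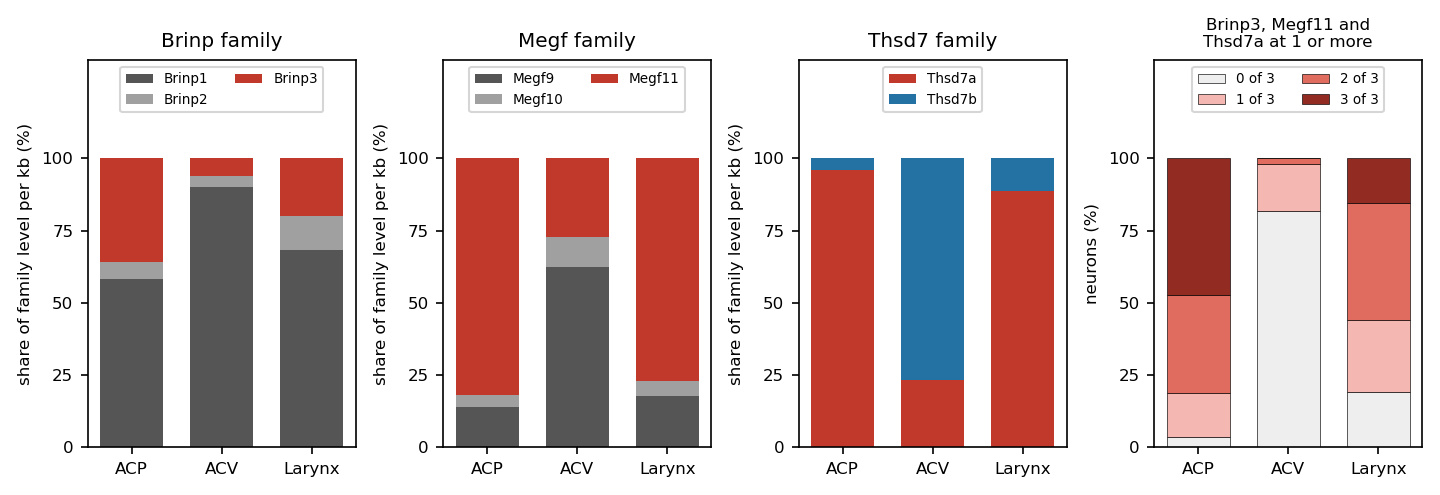
Share of each family's summed level per kb of exon held by each member (first 3 panels, in %, computed from the mean levels of a type) and share of neurons with 0, 1, 2 or 3 of Brinp3, Megf11 and Thsd7a at a level of 1 or more per 10000 (last panel). Megf11 holds 81.8% of the Megf level in ACP and 27.2% in ACV neurons, and Thsd7a 96.0% and 23.3% of the Thsd7 level.

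Megf11 (chr9:64385626-64709205, plus strand) was the ACP-high Megf gene, and laryngeal neurons had it too. In ACP neurons its lowest, median and highest levels were 0.0975, 1.60 and 13.1. In ACV neurons they were 0, 0.0509 and 3.32, and in laryngeal neurons 0, 1.54 and 8.58. Every ACP neuron had Megf11 reads, and the quartile ranges of ACP (0.832 to 3.04) and ACV (0.00695 to 0.212) were apart, whereas the laryngeal quartile range (0.146 to 2.85) overlapped both. The ACP mean of 2.23 ± 2.22 was 11.1-fold the ACV mean of 0.202 ± 0.435, and the ACP neuron was the higher in 95.4% of pairs, the second highest share of all genes tested. The laryngeal mean of 1.98 ± 2.08 was 9.80-fold the ACV mean. ACP over laryngeal neurons gave a ratio of 1.13 with the ACP neuron higher in 55.9% of pairs, so these neighbours in the order of levels did not differ beyond their spread, and under the alternatives tried the log2 ratio ran from −0.28 to 0.57.

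Megf9 (chr4:70427065-70534995, minus strand) and Megf10 (on chromosome 18) did not reach a 2-fold difference between any 2 types over all neurons, but did under some of the alternatives. Megf9 reached 1.81 in ACP, 5.05 in ACV and 4.45 in laryngeal neurons, from a lowest value of 0 in each type, and its medians were 0.0646, 0.0267 and 0.0362. Its means were 0.281 ± 0.417, 0.341 ± 0.768 and 0.338 ± 0.762, with ratios of ACP to the others of 0.825 and 0.831. In neurons with at most 900 Apoe counts (26 ACP, 44 ACV and 38 laryngeal), the log2 ratio of Megf9 was −1.04 for ACP and −1.36 for ACV over laryngeal neurons, beside −0.27 and 0.01 in all neurons. Most neurons of each type, 64.2%, 59.2% and 55.8%, had a Megf9 read. Megf10 had a median and an upper quartile of 0 in every type, with highest values of 2.77, 1.15 and 1.19. Its reads lay in 9 of 53 ACP neurons (17.0%, exact 95% interval 8.07 to 29.8%), 17 of 98 ACV neurons (17.3%, 10.4 to 26.3%) and 11 of 52 laryngeal neurons (21.2%, 11.1 to 34.7%), shares whose intervals overlap. Over the summed counts of a type Megf10 stood at 0.0680 (exact Poisson 95% interval 0.0618 to 0.0746) in ACP, 0.0468 (0.0430 to 0.0510) in ACV and 0.114 (0.103 to 0.127) in laryngeal neurons. Intervals of shares and of summed counts cover counting error only, and reads amplified by PCR are not independent molecules, so with a few neurons holding the reads the spread between neurons is much the larger error. The Megf10 means of 0.0777 ± 0.387, 0.0532 ± 0.170 and 0.0894 ± 0.246 were each below their SD. A single ACP neuron, at 2.77, held 67.3% of the summed Megf10 level of its type. Without it, an alternative added after the data were seen, the log2 ratio of Megf10 was −1.04 in place of 0.55 for ACP over ACV neurons and −1.79 in place of −0.20 for ACP over laryngeal neurons. No neuron of the other type was left out, so this could only lower the ratio. Without the highest 5% of neurons of each type, the log2 ratio was −0.88 for ACP over ACV and −1.53 for ACP over laryngeal neurons. For ACV over laryngeal neurons the log2 ratio of Megf10 was −0.75 in all neurons and ran from −3.89 to −0.30 over the alternatives, past 2-fold with summed counts (−1.29), in neurons with at most 900 Apoe counts (−1.36), in those with at most 50% of counts on Rn45s (−1.11) and in those without Pdgfra and Cspg4 reads (−3.89).

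Because Megf10 and Megf11 are also known from glia, the glial genes were set beside them. Within each type the Spearman correlation of Megf11 with the summed level of 5 oligodendrocyte precursor genes was 0.11 in ACP, 0.20 in ACV and −0.0044 in laryngeal neurons, and that of Megf10 was 0.13, 0.13 and 0.22, over 53, 98 and 52 neurons that differ in depth. With the summed level of 8 astrocyte genes it was 0.21, 0.24 and −0.04 for Megf11 and 0.08, 0.11 and 0.04 for Megf10. In the 39 ACP, 68 ACV and 31 laryngeal neurons without a read of Pdgfra or Cspg4, an alternative added after the data were seen, the log2 ratio of Megf11 for ACP over ACV neurons was 3.45, beside 3.47 in all neurons, and for ACV over laryngeal neurons −3.23, beside −3.29. The log2 ratio of Megf10 for ACP over ACV neurons went from 0.55 to 3.85 in those neurons, in which 6 ACP and 5 ACV neurons had a Megf10 read and the same ACP neuron held 73.8% of the ACP level. Without that neuron, and with no ACV neuron left out, it was 1.95 there. Apoe, an astrocyte gene, was read in 100% of all ACP and 96.9% of all ACV neurons, so this alternative does not leave out astrocyte reads. Among the astrocyte, oligodendrocyte precursor, microglia and endothelium lists, the highest correlation of a member with a list was that of Thsd7a with the oligodendrocyte precursor genes in ACV neurons (0.40). Without neurons with Pdgfra or Cspg4 reads the log2 ratio of Thsd7a for ACP over ACV neurons was 4.64, beside 3.67 in all neurons.

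**Figure D3:**
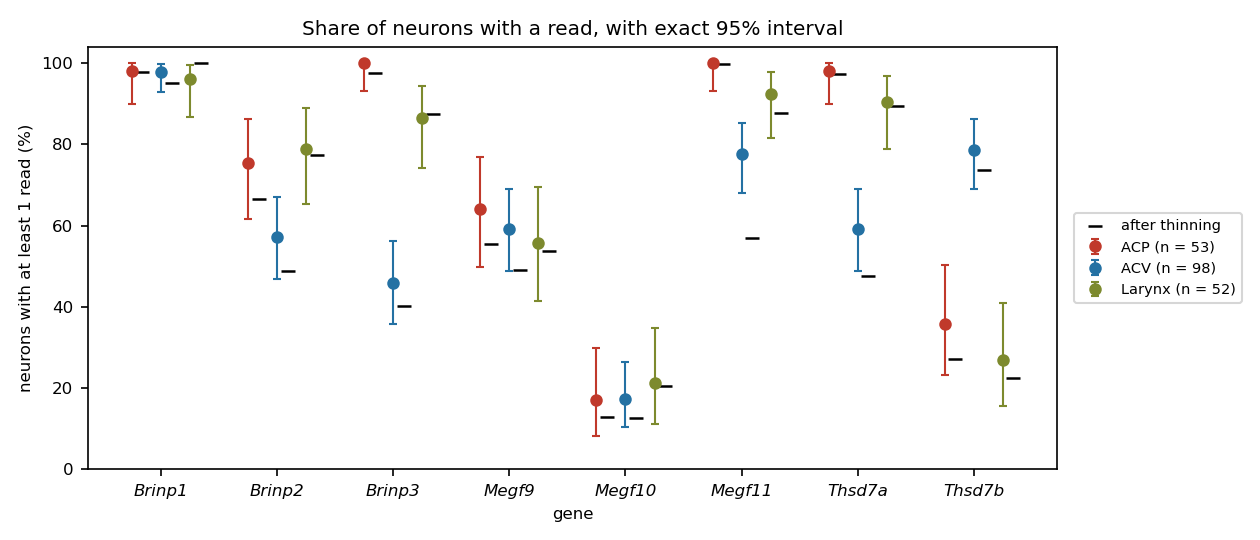
Share of neurons (%) with at least 1 read of each gene by type, with the exact 95% binomial interval, and the expected share after thinning to 200000 counts outside Rn45s (black dashes, leaving out 3 laryngeal neurons). Brinp3 is found in 100% of ACP and 45.9% of ACV neurons, and Thsd7b in 35.8% of ACP and 78.6% of ACV neurons.

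Thsd7a and Thsd7b took opposite places in the cardiac subtypes. The sequences shown are from the windows before their transcription starts, since they are the pair whose order turns between ACP and ACV neurons. They are RefSeq's for GRCm38.p6, read 5′ to 3′ on the strand of the gene, cut to the bases before the first annotated exon, with CpG dinucleotides in capitals. Thsd7a lies at chr6:12749411-12749503 on the minus strand (93 bases, 5 CpG) and Thsd7b at chr1:129273054-129273301 on the plus strand (248 bases, 3 CpG).
Thsd7a: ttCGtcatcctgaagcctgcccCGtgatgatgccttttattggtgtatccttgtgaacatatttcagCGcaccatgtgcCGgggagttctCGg
Thsd7b: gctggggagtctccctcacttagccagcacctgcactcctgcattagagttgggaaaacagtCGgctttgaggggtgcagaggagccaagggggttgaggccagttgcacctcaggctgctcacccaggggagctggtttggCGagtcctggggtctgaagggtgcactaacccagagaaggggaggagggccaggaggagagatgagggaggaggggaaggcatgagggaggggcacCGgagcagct
The whole 250 bases before each RefSeq start include 157 bases in Thsd7a and 2 in Thsd7b that lie in or after the first annotated exon. The windows are thus unlike stretches of the genes. Over them Thsd7a had 15 CpG, 5 of these in the printed bases, and Thsd7b 3, beside a median of 6 over 27025 promoters. Their GC content was 65.2% and 62.8%, beside a median of 52%. The Thsd7a window of 250 bases holds the letters GGGCGG (searched on both strands), but not within the printed bases. The Thsd7b window does not hold them, and 32.9% of all promoters do. TATAAA and TAATTA, present in 13.0% and 4.90% of promoters, were in neither window. These are descriptions of letters and say nothing about binding.

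Thsd7a (chr6:12311610-12749410, minus strand) was high in ACP neurons, with a lowest value of 0, a median of 2.63 and a highest value of 13.4. In ACV neurons the same values were 0, 0.0279 and 6.25, and in laryngeal neurons 0, 0.762 and 11.04. All but 1 of the ACP neurons had reads, and the quartile ranges of ACP (1.21 to 5.02) and ACV (0 to 0.171) did not overlap, although 6 of 98 ACV neurons reached a level of 1 or more per 10000. The ACP mean of 3.35 ± 2.98 was 12.8-fold the ACV mean of 0.263 ± 0.759, with the ACP neuron higher in 93.7% of pairs, the fourth highest share of all genes tested. The laryngeal mean was 1.36 ± 2.14, and the ACP mean was 2.47-fold this value, with overlapping quartile ranges and the ACP neuron higher in 76.8% of pairs. The log2 ratio of ACP over laryngeal neurons ran from 1.03 to 1.73 over the alternatives. Laryngeal neurons in turn had 5.17-fold the ACV mean.

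Thsd7b (chr1:129273302-130219278, plus strand) was the ACV-high gene of the pair. Its level ran from 0 to 5.23 in ACV neurons with a median of 0.387, from 0 to 1.56 in ACP neurons with a median of 0, and from 0 to 2.37 in laryngeal neurons with a median of 0. Most ACV neurons had reads (78.6%), but most ACP and laryngeal neurons had none (reads in 35.8% and 26.9%). The ACV mean of 0.766 ± 1.02 was 6.24-fold the ACP mean of 0.123 ± 0.310 and 4.99-fold the laryngeal mean of 0.154 ± 0.449. The ACV neuron was the higher in 78.0% of ACV-ACP pairs and in 78.7% of ACV-laryngeal pairs. ACP and laryngeal neurons, with a ratio of 0.800, did not differ beyond their spread over all neurons. The log2 ratio of Thsd7b for ACP over laryngeal neurons was −0.32, and −1.07 in neurons with at most 900 Apoe counts, −1.09 in those with at most 50% of counts on Rn45s and 0.39 with totals that include Rn45s.

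**Figure D4:**
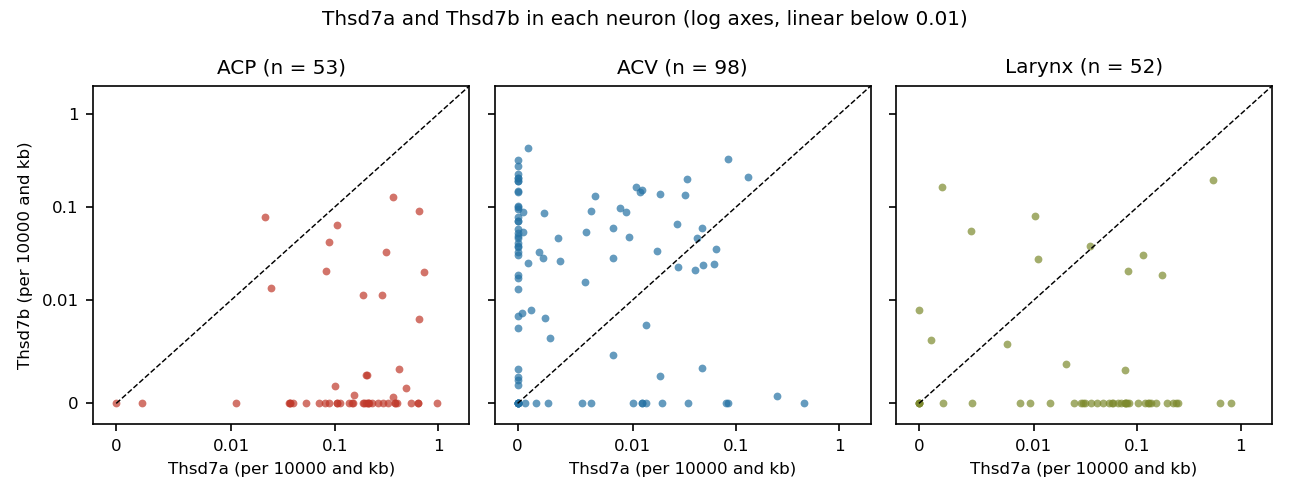
Thsd7a against Thsd7b in each neuron (counts per 10000 per kb of exon, log axes that are linear below 0.01), 1 panel per type, with the line of equal level. Of 53 ACP neurons 51 lie on the Thsd7a side of the line, of 98 ACV neurons 67 lie on the Thsd7b side, and of 52 laryngeal neurons 41 lie on the Thsd7a side.

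Per kb of exon, Thsd7a was above Thsd7b in 51 of 53 ACP neurons and below it in 1. The order was the other way in 67 of 98 ACV neurons, with Thsd7a above in 24. In laryngeal neurons it was above in 41 of 52 and below in 7. The split was not exclusive in single neurons: reads of both genes were found in 44 of 98 ACV neurons, with Thsd7b alone in 33 and Thsd7a alone in 14. In ACP neurons both were found in 19 and Thsd7a alone in 33, and no ACP neuron had Thsd7b alone. In laryngeal neurons both were found in 13, Thsd7a alone in 34 and Thsd7b alone in 1. Family members shared no run of 75 bases, the read length, in their annotated transcripts, and the longest shared run was 33 bases, between Thsd7a and Thsd7b.

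Brinp3, Megf11 and Thsd7a were found together in nearly all ACP neurons. Reads of all 3 were present in 52 of 53 ACP neurons, 25 of 98 ACV neurons and 40 of 52 laryngeal neurons. At a level of 1 or more per 10000, a threshold that is not scaled to gene length and was added after the data were seen, all 3 were present in 25 ACP, 0 ACV and 8 laryngeal neurons, and none of the 3 in 2, 80 and 10. The count of 0 of 98 ACV neurons allows a share of up to 3.06% by the limit of 3 counts. Laryngeal neurons most often had 2 of the 3 genes at that level (21 of 52). The 3 genes were selected for standing apart between ACP and ACV neurons, so these counts restate that choice. Nothing is read from the place of laryngeal neurons between them. Within a type the members followed each other only weakly: the Spearman correlations of the 28 pairs of members ran from −0.23 to 0.53 in ACP, from −0.14 to 0.28 in ACV and from −0.23 to 0.31 in laryngeal neurons. The highest was Brinp1 with Thsd7a in ACP neurons (0.53), and Thsd7a with Thsd7b gave 0.14 in ACP and −0.10 in ACV neurons. All points share the depth of a neuron and its scaling.

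The order of the types in the share of neurons with a read of Brinp3, Megf11, Thsd7a or Thsd7b was the same at a common depth. After thinning every neuron to 200000 counts outside Rn45s, which left out 3 laryngeal neurons, the share of neurons expected to keep a Brinp3 read was 97.7% in ACP, 40.3% in ACV and 87.5% in laryngeal neurons. For Thsd7a it was 97.3%, 47.6% and 89.5%, and for Thsd7b 27.2%, 73.6% and 22.4%. The share for Megf11 in ACV neurons fell from 77.6% to 56.9%, and 54.1% of ACV neurons had at least 5 reads of it.

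**Figure D5:**
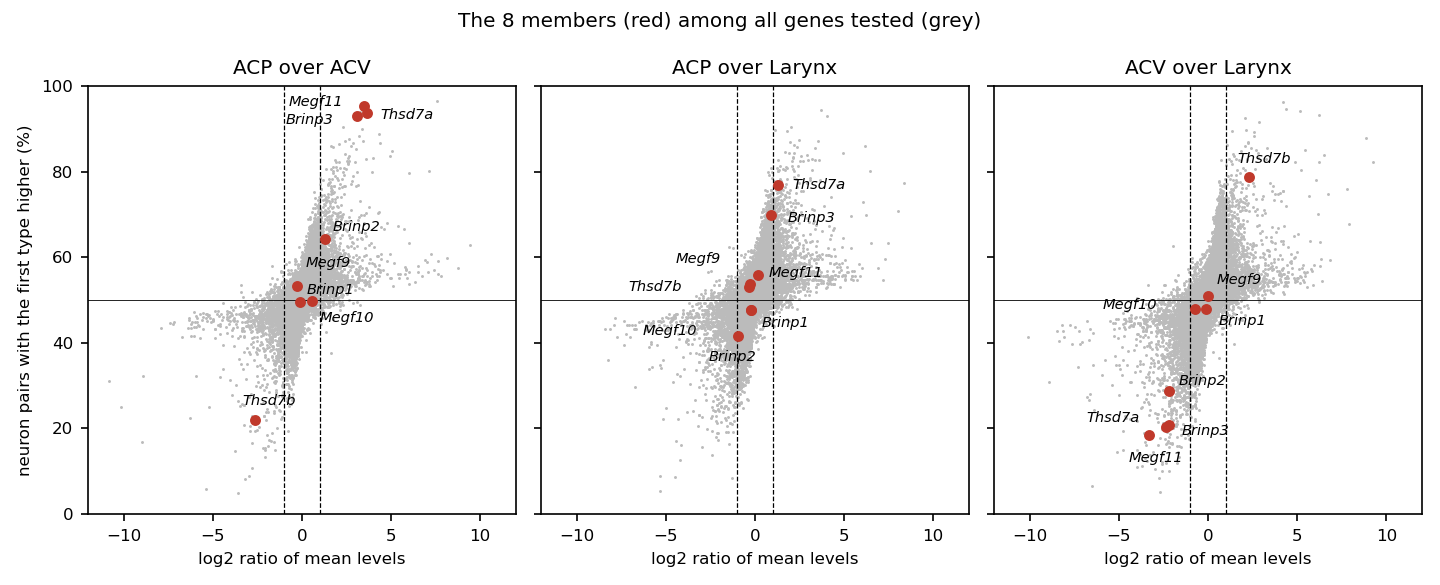
Log2 ratio of mean levels (x axis, dashed lines at 2-fold) against the share of neuron pairs in which the first type is the higher (y axis, %) for all genes tested (grey) and the 8 members (red) in each comparison. Megf11, Thsd7a and Brinp3 lie at 95.4%, 93.7% and 93.0% in ACP over ACV neurons, and no member lies above 76.8% in ACP over laryngeal neurons.

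Relatives of the 3 families were counted from lists drawn up by family. Of 9 MACPF relatives of Brinp, 2 (Astn1 and Astn2) had reads in enough neurons, and neither differed 2-fold between ACP and ACV neurons. Astn2, an astrotactin of migrating neurons, had a level of 0.153 in ACP, 0.286 in ACV and 0.0420 in laryngeal neurons, and so was 3.64-fold higher in ACP and 6.81-fold higher in ACV than in laryngeal neurons. Astn1 had a level of 2.48 in ACP, 1.34 in ACV and 2.59 in laryngeal neurons. Its log2 ratio was 0.88 for ACP over ACV, −0.06 for ACP over laryngeal and −0.94 for ACV over laryngeal neurons. For Astn2 these were −0.90, 1.86 and 2.77, each of the opposite sign. The list's median log2 ratio is the midpoint of these 2 genes and describes neither. It was −0.01, 0.90 and 0.91 in the same order, beside 0.00, −0.03 and −0.02 over all genes tested.

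Of 13 scavenger receptors with EGF-like repeats and engulfment genes, 10 were tested in ACP over ACV neurons, with 2 at least 2-fold higher, 2 at least 2-fold lower and a median log2 ratio of 0.26, beside 9.87% higher, 8.63% lower and a median of 0.00 over all genes tested. The higher ones were Gulp1, an adaptor of engulfment receptors, and Megf6. Gulp1 had a level of 0.268 in ACP, 0.0177 in ACV and 0.107 in laryngeal neurons, 15.1-fold higher in ACP than in ACV neurons, with reads in 66.0%, 10.2% and 26.9% of neurons, and was thus ordered like Brinp3. Megf6 was 2.30-fold higher but had reads in only 17.0% of ACP neurons. Elmo1, part of the complex that activates Rac during engulfment and migration, was 2.45-fold higher in ACV (1.54) than in ACP neurons (0.630), and Stab1 was 4.42-fold higher at a level of 0.0634 in ACV neurons. In the comparisons with laryngeal neurons the counts higher and lower were 2 and 1 of 7 for ACP, with a median of 0.27, and 4 and 2 of 10 for ACV, with a median of 0.17. Over all genes tested these shares were 10.3% and 12.5% for ACP, with a median of −0.03, and 10.4% and 14% for ACV, with a median of −0.02. Abca1, the cholesterol transporter, was 7.04-fold lower in ACP and 4.70-fold lower in ACV than in laryngeal neurons, and Dock1, the partner of Elmo1, was 2.48-fold higher in each. Gulp1 was 2.50-fold higher in ACP and 6.05-fold lower in ACV than in laryngeal neurons. Elmo1 was 2.95-fold higher in ACV (1.54) than in laryngeal neurons (0.522), with the ACV neuron higher in 78.0% of pairs. Scarf2 and Stab1 were 9.30-fold and 2.86-fold higher, but near the floor, at 0.0385 against 0.0041 and 0.0634 against 0.0222. Their reads lay in 10.2% and 15.3% of ACV neurons. The share of pairs, made up mostly of equal pairs counted 0.5, was only 51.4% and 52.8%.

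Among 23 other genes with thrombospondin type 1 repeats, 18 were tested in ACP over ACV neurons, with 6 at least 2-fold higher, 5 at least 2-fold lower and a median log2 ratio of 0.15, beside 9.87%, 8.63% and 0.00 over all genes tested. Higher in ACP neurons were Rspo2, a secreted enhancer of Wnt signaling, at 10.02-fold (0.682 against 0.0680), Spon1, or F-spondin, an axon guidance protein, at 3.02-fold (0.860 against 0.285), the netrin receptors Unc5c and Unc5d at 2.64-fold and 2.39-fold, Sema5b at 2.49-fold and Thsd4 at 2.94-fold. Lower were Thsd1, Thbs1, Thbs2, Unc5b and Cfp, all with a mean below 0.1 in both types. Among the higher ones Thsd4 was as low (0.0540 against 0.0184). The ACP neuron was higher in only 54.1% of pairs for Thsd4 and 53.8% for Sema5b. Against laryngeal neurons, 2 of 19 were higher and 10 lower in ACP neurons, with a median of −1.09, and 2 of 19 were higher and 11 lower in ACV neurons, with a median of −1.37. Over all genes tested the shares higher and lower were 10.3% and 12.5% for ACP (median −0.03) and 10.4% and 14% for ACV (median −0.02). Sema5b, a guidance semaphorin, was 4.37-fold lower in ACP (0.202) and 10.9-fold lower in ACV (0.0811) than in laryngeal neurons (0.882), and Adamtsl3 8.88-fold and 10.8-fold lower. Unc5d, Unc5c, Rspo2 and Adgrb1 were 4.00-fold, 2.59-fold, 5.83-fold and 2.76-fold lower in ACV than in laryngeal neurons. Sema5a went the other way, with a mean of 2.43 in ACV and 0.889 in laryngeal neurons (2.73-fold), as did Thsd4, and in ACP over laryngeal neurons Spon1 was 2.97-fold higher. Unc5a, Unc5b, Thsd1, Rspo3 and Adamtsl1 were lower in both cardiac types than in laryngeal neurons, and Thbs1, Thbs2 and Cfp in ACP neurons. All of these but Unc5a were near the floor, with a mean below 0.1 in every type. For them the share of pairs with the ACP neuron above the laryngeal neuron ran from 43.9% (Unc5b) to 50.7% (Thbs1). These low genes are most of those counted as lower in ACP neurons and part of those in ACV neurons.

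The genes whose levels were most like each member's were ranked by Spearman correlation over all 203 neurons among 10591 genes with a read in at least 25% of them. Ptprd, a receptor tyrosine phosphatase of synapses, came first for Brinp3 (0.60), Megf11 (0.59) and Thsd7a (0.67), with means of 4.77 in ACP, 0.498 in ACV and 3.31 in laryngeal neurons. Second came the secreted semaphorin Sema3c for Brinp3 (0.59), the Ras exchange factor Rasgrf1 for Megf11 (0.56) and the ACP marker Pappa2 for Thsd7a (0.61). Thsd7b was most like Cntn5, a neuronal adhesion protein (0.54), and the ACV marker Bche (0.52). These values combine the differences between types with those within them: within ACP neurons Ptprd correlated with Thsd7a at 0.40, with Brinp3 at 0.24 and with Megf11 at 0.07. The members without a 2-fold ACP difference over all neurons had lower and other neighbours, namely Rtn3 and Syngr3 for Brinp1 (both 0.46), Mdc1 (0.36) and Hspa5 (0.35) for Megf9, and Fgfr2 (0.35) and Sst (0.33) for Megf10. Cx3cl1, a membrane-bound chemokine of neurons, correlated with Brinp2 at 0.41 and had its highest mean, 2.78, in laryngeal neurons.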

How the data were processed

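Single labeled neurons were sequenced by Smart-seq2 with 75-base paired-end reads. Adapters were removed by Skewer and alignment to mm10 was by STAR (version 2.6.1d), after which the authors deposited raw counts of reads per gene and neuron, without normalization. The program and annotation used for counting, and whether strand was used, are not given in the sources used here. Of its 24029 genes, 4493 had a count of 0 throughout. A deposited table named CPM was not used, since its columns have no common total. Types are those of the deposited annotation, used as given.

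The genes and lists were chosen with earlier results of these data known. Counts were divided by the total outside Rn45s and multiplied by 10000, and means were taken over neurons, with a floor of 3 counts over a type. A gene was counted as higher or lower at a ratio of 2 or more, or 0.5 or less, if 10% or more of either type's neurons had a read of it. Pairs of neurons with equal values counted 0.5. No test was made, because the labels name no animal, so that each type is 1 sample; the study compared neurons with Wilcoxon rank sum tests. Shares carry exact Clopper-Pearson and summed counts exact Poisson 95% intervals. Shares after thinning came from the hypergeometric distribution. Lengths, positions and exon overlaps were read from GENCODE vM21 (GRCm38). The text names the 8 members, markers, genes of the 3 lists of relatives that passed 2-fold, the 2 genes most correlated with each member (1 of which is not reported here) and genes whose exons overlap a member's.

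Alternatives were totals with Rn45s, TMM (edgeR 4.0.16) and DESeq2 (1.42.0) scaling, summed counts, means of logs, leaving out the highest 5% of neurons, neurons with at least 200000 counts, at most 900 Apoe counts or at most 50% of counts on Rn45s, ratios of 1.5 and 4, a pair share of 0.75, and no detection filter or one of 25%. At most 900 Apoe counts were found in 26 ACP, 44 ACV and 38 laryngeal neurons, a cut on counts not scaled by depth. At most 50% of counts were on Rn45s in 45, 76 and 15 neurons in the same order. Neurons without Pdgfra and Cspg4 reads, and a level of 1 or more for the genes found together, were added after the data were seen. Scripts, tested on simulated data, ran in Python 3.11.15 (numpy 2.4.6, pandas 2.3.3, scipy 1.17.1) and R 4.3.3.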

Additional observations from a re-analysis of the deposited data

How the results depend on the processing

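Some log2 ratios of members could not change under an alternative. Ratios of 1.5 and 4, the pair share and the changed detection filters reuse the main values. Dropping the filter cannot change a call either, since every member passed it. The minimum of counts outside Rn45s left out no ACP or ACV neuron, so it repeated the values for ACP over ACV neurons. These cases are included below, so the number that kept a call is no measure of stability. Of 364 log2 ratios of members under the alternatives, 339 kept their call or lack of one under the threshold of the alternative. A further 21 gained a call and 4 lost it. The 4 were lost to the stricter thresholds alone, with the values themselves as before: Brinp2 in ACP over ACV neurons at a ratio of 4 and at a pair share of 0.75, Thsd7a in ACP over laryngeal neurons at a ratio of 4, and Brinp2 in ACV over laryngeal neurons at a pair share of 0.75. No called log2 ratio turned sign (0), but 27 values of ratios that were not called did, such as Megf10 in ACP over ACV neurons (0.55 to −0.88 without the highest 5% of neurons) and Brinp2 in ACP over laryngeal neurons (−0.94 to 0.14 in neurons with at most 50% of counts on Rn45s). For ACP over laryngeal neurons, 2 members were higher with totals that include Rn45s, with means of logs and at a ratio of 1.5, and 0 at a ratio of 4. Members lower in ACP than in laryngeal neurons numbered 1 without the highest 5% of neurons (Megf10), 2 in neurons with at most 900 Apoe counts (Megf9 and Thsd7b), 1 in neurons with at most 50% of counts on Rn45s (Thsd7b) and 1 at a ratio of 1.5 (Brinp2), against 0. Members lower in ACV than in laryngeal neurons numbered 3 to 6 over the alternatives, against 4. The counts over all genes moved as well. For ACP over laryngeal neurons, 3398 of 13256 genes were higher with totals that include Rn45s and 1300 with means of logs. Lower were 2305 of 13329 genes in neurons with at most 900 Apoe counts and 1787 of 13256 without the highest 5% of neurons. Nothing about the members is read from their counts under the alternatives. Megf9, Megf10 and Thsd7b are at low levels in both types, and the cause of these moves was not tested.

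Counts over all genes, higher and then lower, moved by over 1.5 times as follows. For ACP over ACV neurons they were 2469 and 2134 at a ratio of 1.5, 393 and 371 at a ratio of 4, 85 and 44 at a pair share of 0.75, 2837 and 2860 without a detection filter, and 789 and 537 with a filter of 25%. For ACP over laryngeal neurons they were 2589 and 2945, 431 and 493, 93 and 59, 2605 and 4515, and 817 and 1016 in the same order, 3398 and 695 with totals that include Rn45s, and 2077 (higher) without the highest 5% of neurons and 2217 (higher) in neurons with at most 50% on Rn45s. For ACV over laryngeal neurons they were 2685 and 3267, 460 and 542, 94 and 127, and 2715 and 4794, then 764 (higher) with a filter of 25%, 3281 and 955 with totals that include Rn45s, and 2124 (higher) without the highest 5%. A ratio, pair share or filter changes the count by its construction, and the cause of the other moves was not tested.

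Of 24 shares of neurons with a read, 0 moved beyond their intervals at 2 reads or more, 6 at 5 reads or more and 3 after thinning. No paired analysis was possible because the labels give no number that pairs neurons across types. Leaving out single replicates was not done, since each type is 1 sample of cells. Laryngeal neurons had fewer counts outside Rn45s, with a minimum of 118492, so low members are least certain there.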
